A study of Mus musculus with 4 samples.

Results

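The proteasome is the barrel-shaped protease that degrades proteins tagged with ubiquitin. Its genes were taken as those whose symbol on the array begins with Psm, then a letter from a to g, then a number. That rule matched 49 of the 35699 genes on the array, read by 62 probes. Of these, 46 were well above background on all 4 arrays, out of 22751 genes measured in all. Psmc3ip, a meiotic recombination factor, matched by prefix only and is no proteasome subunit.

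The samples were 3D-retinas, optic cups grown in floating culture from mouse Nrl-GFP iPSCs, in which the rod gene Nrl drives green fluorescent protein. Treatment began on differentiation day 23 and ended with collection on day 25. RNA of 24 pooled 3D-retinas per group was hybridised to 1 array, after 50 ng had been labelled. The groups were vitamin E (400 µM) added to 4-OHT, lutein (200 nM) added to 4-OHT, 4-OHT alone, and ethanol as vehicle. 4-OHT is 4-hydroxytamoxifen, an active metabolite of tamoxifen, and was given at 5 µM in all 3 groups that received it. No group has a replicate, so every difference below is one between single arrays, with no replicate check and no p-value. Levels are log2 intensities minus the 75th percentile of the array's gene spots, and differences are between such levels. Technical noise was taken from the 265 to 270 probes printed at 10 spots each, where the SD between spots, carried over to a log2 difference, was 0.15 to 0.17. That figure leaves out any spread between cultures.

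In the 26S proteasome a 20S core is closed by 19S caps. The core is built of outer rings of alpha subunits (Psma genes) and inner rings of beta subunits (Psmb genes), of which Psmb5, Psmb6 and Psmb7 carry the active sites. The cap binds, unfolds and feeds in the substrate: its base holds the ATPases (Psmc genes), and its lid removes ubiquitin. Interferon-inducible Psmb8, Psmb9 and Psmb10 can replace the catalytic subunits to form the immunoproteasome, known for producing peptides for antigen presentation. Photoreceptors make and turn over large amounts of protein, and impaired proteasome function is known to be harmful to them in mice.

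When proteasome activity is short, the transcription factor NRF1 (gene Nfe2l1) is known to raise the transcription of most subunit genes through antioxidant response elements. Short promoter windows are therefore shown for this element in the genes of 2 catalytic subunits and of the activator Psme4, and for the interferon-stimulated response element in Psmb3, Psmd4 and the activator Psme1. Promoters (RefSeq, GRCm38.p6, 250 bases before to 50 after the start) were matched for 41 of the 49 genes and searched on both strands. The antioxidant core was TGACNNNGC, whose first letters also occur in AP-1 and cyclic AMP response elements. The interferon core was GAAA, any 2 bases, GAAA. The windows lie at chr14:54618024-54618052 (minus strand, Psmb5), chr11:70525338-70525366 (plus, Psmb6), chr11:30771758-30771786 (plus, Psme4), chr11:97703261-97703290 (plus, Psmb3), chr3:95042675-95042704 (minus, Psmd4) and chr14:55578493-55578522 (plus, Psme1). Each is written 5′ to 3′ on the gene's strand, and capitals mark the motif, read on the opposite strand in Psme4, Psmb3, Psmd4 and Psme1.
Psmb5: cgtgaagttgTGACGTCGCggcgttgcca
Psmb6: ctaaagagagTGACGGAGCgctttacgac
Psme4: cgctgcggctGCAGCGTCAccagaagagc
Psmb3: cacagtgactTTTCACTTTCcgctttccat
Psmd4: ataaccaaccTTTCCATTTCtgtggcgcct
Psme1: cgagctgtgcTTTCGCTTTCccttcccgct

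The antioxidant core was found in 6 of the 41 promoters (14.6%), against 14.0% of 27025 promoters of the same length. The 6 belong to Psmb5, Psmb6, Psmc6, Psmd12, Psmd9 and Psme4. The interferon core was found in 5 (12.2%), against 3.99%, and these belong to Psmb3, Psmd4, Psmd9, Psme1 and Psmg4. The median log2 difference of 4-OHT minus vehicle was -0.42 in the 6 genes with the antioxidant core and -0.50 in the 33 measured genes without it. For the interferon core it was -0.29 in 5 genes and -0.50 in 34. A match is a description of letters, not of a bound site.

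The comparison of 4-OHT with vehicle asked how gene expression differed after exposure to the drug. Levels of proteasome genes were lower on the 4-OHT array across nearly the whole complex, each by a small amount. Of the 46 measured genes 44 lay below 0, where 55.0% of all genes measured did so. Their median log2 difference was -0.49, against -0.06 over all genes and -0.13 over protein-coding genes. At least 1.5-fold lower were 11 members, against 13.5% of all genes, and 0 were at least 1.5-fold higher, against 15.1%. None reached 2-fold, and the range ran from -0.65 for Psma1 to 0.37 for Psme4. In bulk RNA of this kind, fewer cells of a type and less RNA per cell cannot be told apart.

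**Figure D1:**
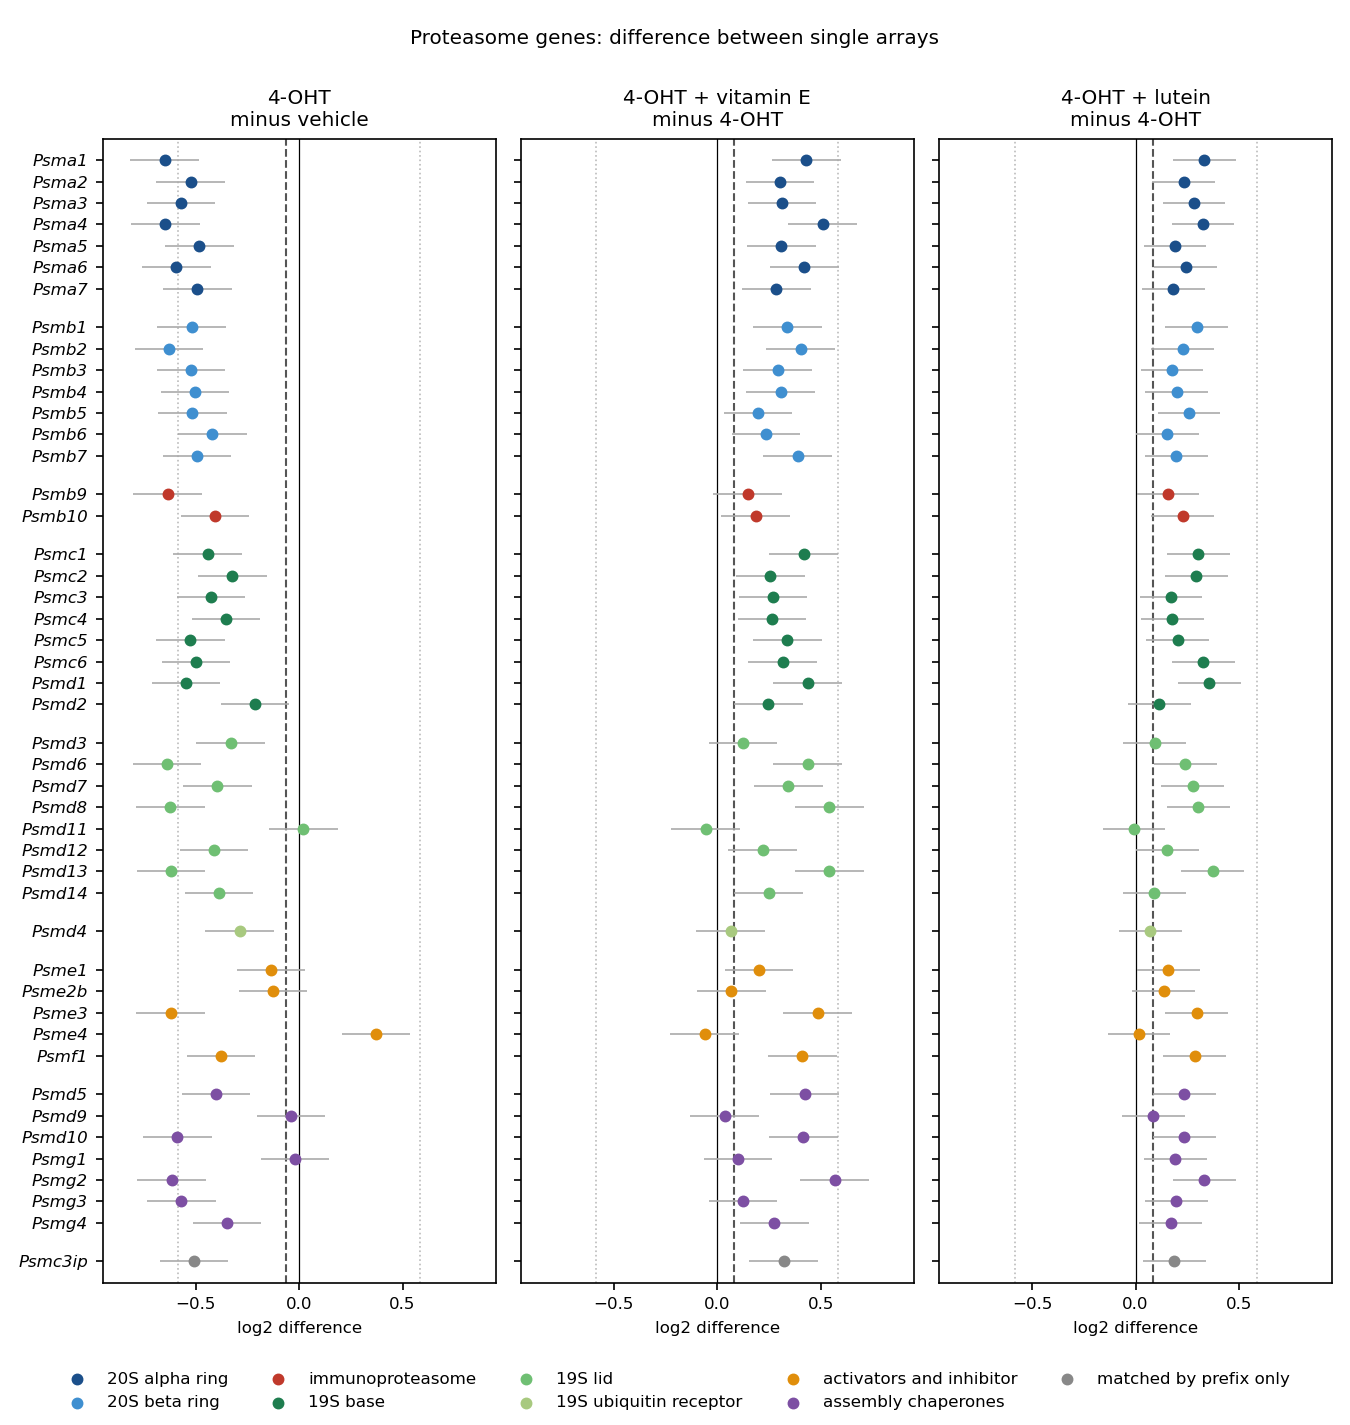
Log2 difference of each of the 46 measured genes (rows, coloured by role) between single arrays, for 4-OHT minus vehicle, 4-OHT with vitamin E minus 4-OHT and 4-OHT with lutein minus 4-OHT. Bars are the spot SD averaged over replicated probes, the same for every gene of a panel and not a gene's own noise. Dashed lines are the median of all genes and dotted lines 1.5-fold. In the first panel 44 of 46 points lie left of 0, and Psmd11 and Psme4 lie right of it.

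The 20S core was the most even group. All 14 of its measured subunits lay below 0 on 4-OHT minus vehicle, between -0.65 and -0.42, with a median of -0.52. The SD over these 14 genes was 0.07. The spot SD of 0.17 is an average over many replicated probes and does not give the noise of these 14. The 1 member printed at 10 spots, Psme1, had a spot SD of 0.05 for this difference. The 7 alpha subunits had a median of -0.57 and the 7 beta subunits one of -0.52. Psma8 and Psmb11, which stand in for core subunits in testis and thymus, stayed at background on all 4 arrays.

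Among alpha subunits, Psma1 had levels of 4.82 with vitamin E, 4.72 with lutein and 4.39 on 4-OHT alone, against 5.04 in vehicle. This was the lowest difference of all members, -0.65 (1.57-fold lower), and both supplemented arrays lay between the other two. Psma4 read 3.62, 3.44 and 3.11 on the same arrays in that order, against 3.76 in vehicle, a difference of -0.65 for 4-OHT alone. Its probe is annotated to another chromosome than the gene, as is that of Psma5, so what these probes read is uncertain. Psma6 had 4.13 with vitamin E, 3.95 with lutein and 3.71 on 4-OHT, against 4.30 in vehicle (-0.59). Psma5 lay nearest to vehicle of the alpha ring, at 4.64 with vitamin E, 4.53 with lutein and 4.34 on 4-OHT, against 4.82 in vehicle (-0.48). Psma2, Psma3 and Psma7 lay between these, from -0.57 to -0.49.

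The 3 catalytic subunits were lower by similar amounts. Psmb5, the chymotrypsin-like site, had 7.09 with vitamin E, 7.15 with lutein and 6.90 on 4-OHT, against 7.41 in vehicle, a difference of -0.52 for 4-OHT alone. Psmb6, the caspase-like site, had 6.72 with vitamin E, 6.63 with lutein and 6.48 on 4-OHT, against 6.90 in vehicle. At -0.42 it was the core subunit nearest to vehicle. Psmb7, the trypsin-like site, had 3.57 with vitamin E, 3.37 with lutein and 3.18 on 4-OHT, against 3.67 in vehicle (-0.49). Psmb2, a structural beta subunit, was the lowest of its ring, with 1.65 on the vitamin E array, 1.47 with lutein and 1.25 on 4-OHT, against 1.88 in vehicle (-0.63). In all 4 of these genes the 4-OHT array was the lowest and the vehicle array the highest.

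The immunoproteasome subunits were not higher on the 4-OHT array where they could be measured. Psmb9, the counterpart of Psmb6, was faint, at -3.69 with vitamin E, -3.68 with lutein and -3.84 on 4-OHT, against -3.20 in vehicle. Its difference of -0.64 for 4-OHT alone was -0.14 when the background was corrected by normexp, so that its size rests on the background method. Psmb10, the counterpart of Psmb7, had 2.65 with vitamin E, 2.70 with lutein and 2.47 on 4-OHT, against 2.87 in vehicle (-0.41). Psmb8, the counterpart of Psmb5, was not well above background on any array, with readings of -5.57, -4.09 and -4.45 on the vitamin E, lutein and 4-OHT arrays, against -5.60 in vehicle, so no fold is given. The probe for Psmb9 lies at chr17:34319174-34319233 and that for Psmb8 at chr17:34337771-34337830 (mm9, from the array's annotation).

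Most other measured genes of class I antigen presentation and interferon signalling lay above 0. Of 12 listed genes 10 were measured, 8 above 0 and 2 below, where 55.0% of all genes lay below. The list's median log2 difference was 0.73 for 4-OHT minus vehicle. The 2 below were Tapbp, which loads peptides onto class I molecules, at -0.42, and the interferon gamma receptor chain Ifngr1 at -0.64. At least 1.5-fold higher were 6, against 15.1% of all genes, and 1 was at least 1.5-fold lower, against 13.5%. Irf1, an interferon-regulated transcription factor, had -1.06 with vitamin E, 1.49 with lutein and 2.16 on 4-OHT, against -1.15 in vehicle, a difference of 3.31. The class I heavy chains H2-K1 and H2-D1 had differences of 2.03 and 1.89. Neither Tap1, a subunit of the peptide transporter, nor Erap1, a peptide-trimming enzyme, was well above background on an array. Of 10 microglia and leukocyte markers 3 were well above background, and Ptprc, Aif1, Cx3cr1, Tyrobp, C1qa, C1qc and P2ry12 were not on any array. The summed linear level of that list was 12.6 with vitamin E, 16.7 with lutein and 30.8 on 4-OHT, against 12.5 in vehicle. Most of that sum was Itgam, with a difference of 1.49 for 4-OHT minus vehicle, while the other 2 measured markers, Csf1r and C1qb, had 0.10 and 0.27. Whether such cells were present, or had a part in the results, was not tested.

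The 19S cap was lower as well, with a wider spread than the core. Of 17 measured subunits 16 lay below 0 on 4-OHT minus vehicle, with a median of -0.41 and an SD over genes of 0.17. The 8 base subunits had a median of -0.43, the 8 lid subunits one of -0.40, and Psmd4, a ubiquitin receptor, had -0.29. At least 1.5-fold lower were 3 of the 17, against 13.5% of all genes, and these 3 belong to the lid. A dimmer second probe of Psmc1, a base subunit, also passed that size at -0.60, but it is annotated to another chromosome than the gene.

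In the base, Psmd1, a large scaffold subunit, was the lowest, with 5.09 on the vitamin E array, 5.01 with lutein and 4.65 on 4-OHT, against 5.20 in vehicle (-0.55). The other scaffold, Psmd2, was nearest to vehicle, with 4.68, 4.55 and 4.43 on those arrays in the same order, against 4.65 in vehicle (-0.21). The 6 ATPases Psmc1 to Psmc6 lay between, from -0.53 for Psmc5 to -0.32 for Psmc2. Psmd4 had 5.92 with vitamin E, 5.93 with lutein and 5.86 on 4-OHT, against 6.14 in vehicle, so the 3 arrays with 4-OHT lay close together.

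In the lid, Psmd6 had 3.58 with vitamin E, 3.38 with lutein and 3.14 on 4-OHT, against 3.78 in vehicle (-0.64). Psmd8 had 4.03 with vitamin E, 3.79 with lutein and 3.49 on 4-OHT, against 4.11 in vehicle (-0.62). Psmd13 had 3.42 with vitamin E, 3.25 with lutein and 2.88 on 4-OHT, against 3.50 in vehicle (-0.62). In all 3 lid genes the vitamin E array lay nearer to vehicle than the lutein array. Psmd11, a lid subunit that also contacts the core, stood apart from the rest of the cap. It had 2.36 with vitamin E, 2.41 with lutein and 2.41 on 4-OHT, against 2.39 in vehicle, a difference of 0.02. Psmd14, the subunit that cuts off ubiquitin, had a difference of -0.39.

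The activators and the inhibitor were the most varied group. Their 5 measured members had a median of -0.14 for 4-OHT minus vehicle and an SD over genes of 0.37. Psme3, the nuclear activator PA28 gamma, had 2.25 with vitamin E, 2.06 with lutein and 1.77 on 4-OHT, against 2.39 in vehicle (-0.62). Psme4, the nuclear activator PA200, had 0.85 with vitamin E, 0.93 with lutein and 0.91 on 4-OHT, against 0.54 in vehicle. Its 4-OHT minus vehicle difference of 0.37 was the highest of all members. A second Psme4 probe gave 0.71 for the same comparison, the widest gap among the 12 members with several detected probes, where the median gap was 0.05. For vitamin E minus 4-OHT that probe gave -0.46, where the brighter probe gave -0.06.

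Psme1, a subunit of the interferon-inducible activator PA28, is printed at 10 spots, and its 4-OHT minus vehicle difference was -0.14 ± 0.05 (SD, 10 spots). Psme2b had a difference of -0.13, but its detected probes also carry the accession of Psme2, the other PA28 subunit. The probe for Psme2b alone was not well above background on any array. Psmf1, an inhibitor of the core, had -0.38.

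The 7 assembly chaperones were uneven. Their median was -0.40, and 2 of the 7 were at least 1.5-fold lower, against 13.5% of all genes. Psmg2, which with Psmg1 guides the alpha ring together, had 3.19 with vitamin E, 2.95 with lutein and 2.62 on 4-OHT, against 3.23 in vehicle (-0.62). A dimmer second Psmg2 probe gave -0.41 for that difference, short of 1.5-fold. For vitamin E minus vehicle it gave 0.26, where the brighter probe gave -0.05. The partner Psmg1 had 4.52 with vitamin E, 4.61 with lutein and 4.42 on 4-OHT, against 4.44 in vehicle (-0.02). Psmd10 (gankyrin), a chaperone of the base, had 0.08 with vitamin E, -0.09 with lutein and -0.33 on 4-OHT, against 0.26 in vehicle (-0.59). Psmd9, also of the base, had -0.04, Psmd5 -0.40, and the alpha-ring chaperones Psmg3 and Psmg4 -0.57 and -0.35.

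**Figure D2:**
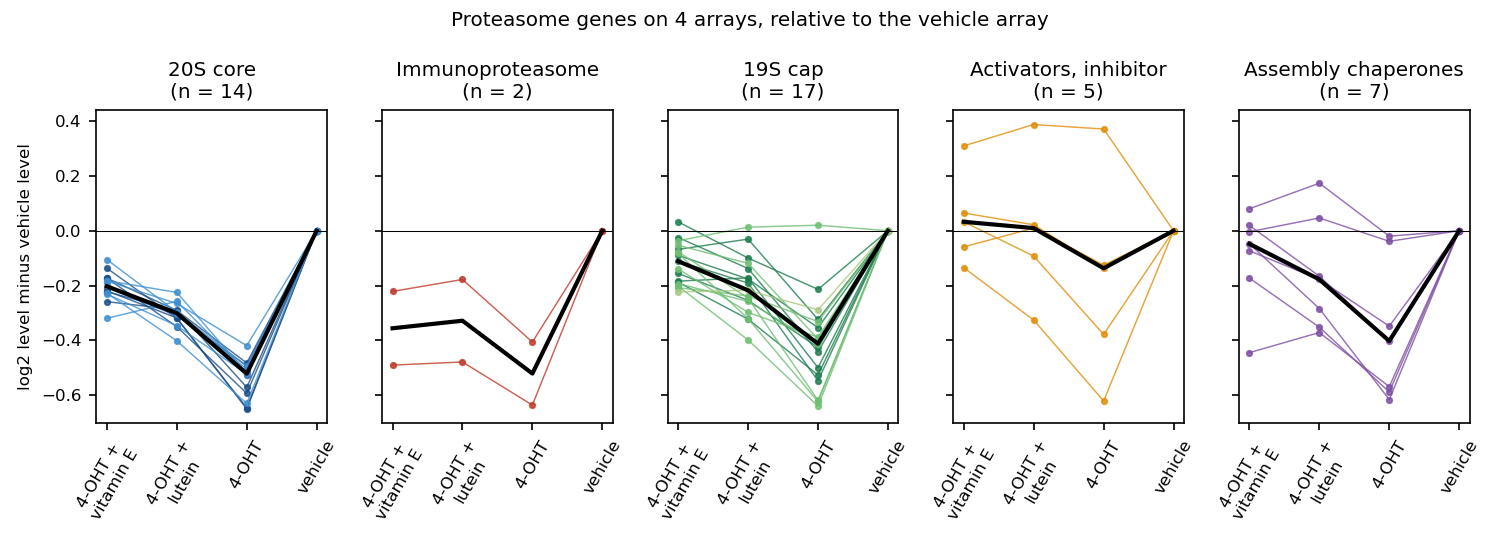
Log2 level minus the vehicle level for each measured gene (thin lines, 1 gene each) and the group median (black), by array from 4-OHT with vitamin E on the left to vehicle at 0 on the right. Core genes on 4-OHT lie between -0.65 and -0.42, while activators and assembly chaperones spread from -0.62 to 0.37.

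The supplemented arrays were set against 4-OHT alone. With vitamin E, 44 of 46 members lay above the 4-OHT array, against 56.9% of all genes, with a median difference of 0.30 against 0.08 over all genes and 0.17 over protein-coding genes. With lutein it was 45 of 46, against 61.8% of all genes, with a median of 0.20 against 0.08 over all genes and 0.13 over protein-coding genes. No member was at least 1.5-fold higher with either, where 8.55% of all genes were with vitamin E and 3.84% with lutein. These differences use the same 4-OHT array as the comparison with vehicle, so a reading that happened to be low there would enter both.

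By role, the vitamin E minus 4-OHT medians were 0.31 for the core, 0.27 for the cap, 0.28 for assembly chaperones, 0.20 for activators and the inhibitor, and 0.17 for the 2 immunoproteasome subunits. The highest member was Psmg2 at 0.57 and the lowest Psme4 at -0.06. The lutein minus 4-OHT medians were 0.23 for the core, 0.20 for the cap, 0.20 for assembly, 0.16 for activators and the inhibitor, and 0.19 for the immunoproteasome. Psmd13 was highest at 0.37 and Psmd11 lowest at -0.01.

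Set against vehicle, levels on both supplemented arrays were somewhat lower. With vitamin E 40 of 46 members lay below vehicle, against 52.9% of all genes, with a median of -0.16 and a core median of -0.20. With lutein 40 also lay below, against 51.5%, with a median of -0.26 and a core median of -0.30. Vitamin E lay above lutein in 34 of 46 members, against 52.5% of all genes, with a median difference of 0.10. In 30 members the order of levels, low to high, was 4-OHT, lutein, vitamin E, vehicle. This order was not counted over all genes. Their median was -0.06 for 4-OHT minus vehicle, 0.08 for each supplement minus 4-OHT and 0.02 for vitamin E minus lutein. How much of the order is array-wide was not tested. Vitamin E and lutein were given at different doses, so their values stand side by side only.

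Proteasome genes are bright on these arrays, and bright genes as a whole also lay below 0, so members were set beside genes of like level. Members with a mean level of 2 to 4 had a median of -0.53 (14 genes), against -0.20 in other protein-coding genes of that level. At 4 to 6 the members' median was -0.48 (15 genes), against -0.26, and above 6 it was -0.50 (7 genes), against -0.16. In each of these bands the members' median was the lower. Counts at least 1.5-fold lower did not follow the medians. At 2 to 4 there were 6 such members (42.9%), against 14.6% of other protein-coding genes. At 4 to 6 there were 2 (13.3%), against 19.3%, and above 6 there were 0, against 25.6%. For the supplements the gap at like level was smaller. For vitamin E minus 4-OHT the members' medians were 0.37 at 2 to 4, 0.29 at 4 to 6 and 0.29 above 6, against 0.24, 0.27 and 0.21 in other protein-coding genes. For lutein minus 4-OHT they were 0.26, 0.19 and 0.20 in the same bands, against 0.16, 0.19 and 0.14. At 4 to 6, the band with the most members, the supplement medians of members and other genes were thus nearly equal.

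**Figure D3:**
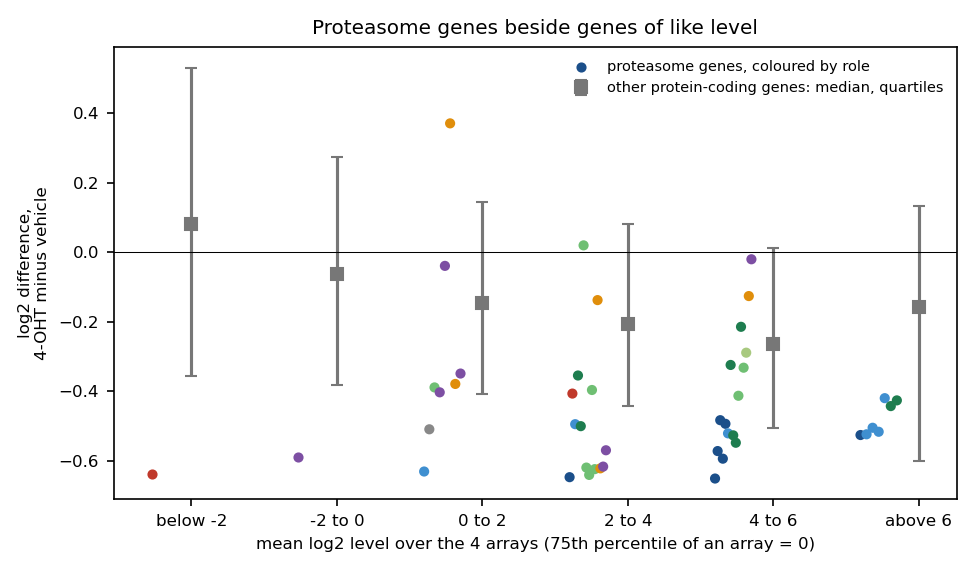
Log2 difference of 4-OHT minus vehicle for proteasome genes (points, coloured by role, spread sideways at the left of each band) and for other protein-coding genes (squares are medians, bars are quartiles), by mean log2 level over the 4 arrays. In the band from 4 to 6 the median of 15 members is -0.48, against -0.26 in other genes.

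Other large complexes were each different. The 80 cytosolic ribosomal protein genes had a median of 0.09 for 4-OHT minus vehicle, and 23 lay below 0, against 55.0% of all genes. The 8 subunits of the chaperonin, which folds actin and tubulin, had a median of -0.33, and all 8 lay below 0. The 78 subunits of the respiratory chain and ATP synthase had a median of -0.77, and 67 were at least 1.5-fold lower, against 13.5% of all genes. A median below that of all genes was therefore not particular to the proteasome.

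Genes that work with the proteasome differed between lists. Of 8 partners, all measured, 7 lay below 0, against 55.0% of all genes, with a median of -0.37. Txnl1, a thioredoxin-like protein that binds the cap, had -0.68, whereas Ecpas (listed on the array as AI314180), an adapter between core and cap, had 0.84. The core maturation factor Pomp and the lid subunit Sem1 both had -0.53. Of the 12 genes of the NRF1 route and of substrate delivery 7 lay below 0, against 55.0% of all genes, with a median of -0.14. Nfe2l1 had -0.13 with vitamin E, 0.29 with lutein and 0.34 on 4-OHT, against -0.33 in vehicle, a difference of 0.67. Ngly1, the enzyme that processes NRF1, had -0.65, and Nfe2l2, the related factor NRF2, had -0.54.

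Of the 6 ubiquitin and ubiquitin-activating enzyme genes none reached 1.5-fold and the median was 0.07, with the activating enzyme Uba1 at -0.36. Of the 8 listed genes of proteotoxic stress 7 were measured, with a median of 0.43, and 3 were at least 1.5-fold higher. Hspa1a, a heat-inducible chaperone, had 0.13 with vitamin E, 1.74 with lutein and 3.01 on 4-OHT, against 0.40 in vehicle, a difference of 2.60. Its co-chaperone Bag3 had 1.79 and the autophagy receptor Sqstm1 0.93. The list counts are descriptions, to be read beside the 13.5% of all genes at least 1.5-fold lower and the 15.1% at least 1.5-fold higher.

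**Figure D4:**
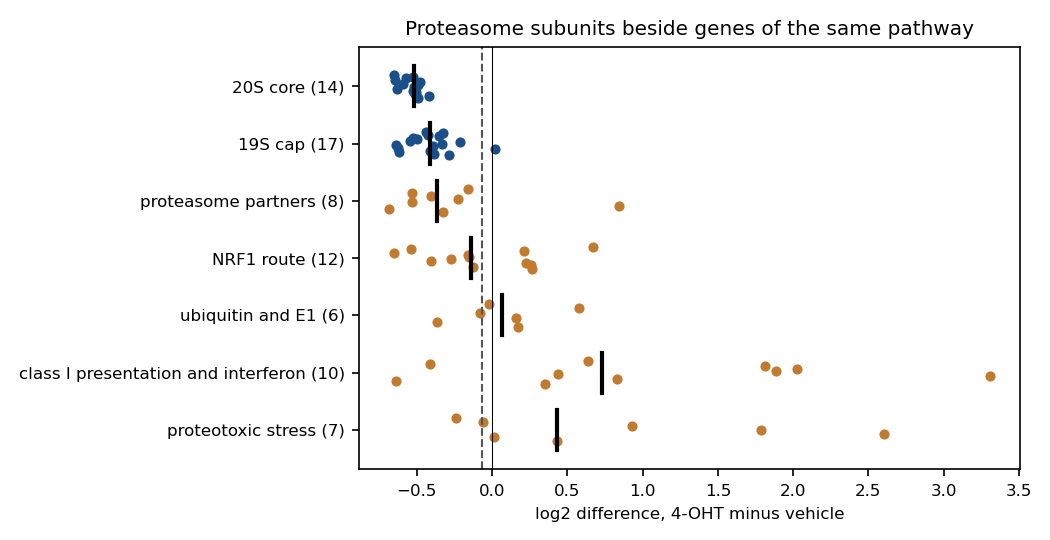
Log2 difference of 4-OHT minus vehicle for core and cap subunits (blue) and for related genes (brown), 1 point per gene, with the number of genes in parentheses, list medians as black bars and the median of all genes as a dashed line. Core subunits keep between -0.65 and -0.42, while class I and interferon genes reach 3.31.

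Photoreceptor markers were lower on the 4-OHT array too. All 10 rod and photoreceptor markers were well above background on every array. On 4-OHT all 10 were at least 1.5-fold lower than in vehicle, against 13.5% of all genes. Their median was -0.90, with a range from -5.35 for Gnat1 to -0.67 for Rom1. Rom1 and Nrl were the brightest in vehicle, at 9.40 and 8.99, so they weigh most in a linear sum. The summed linear level of the 10 markers was 1522 with vitamin E, 1211 with lutein and 969.5 on 4-OHT, against 1801 in vehicle. Its part in the lower proteasome levels was not tested. Scaling on spike-in probes in place of the 75th percentile moved the median of all genes by -0.24 for 4-OHT minus vehicle, and the members' median was then -0.74. With only the 7 spike-in probes that had every spot well above background, these values were -0.14 and -0.63.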

How the data were processed

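The submitters' processing notes name Agilent Feature Extraction 10.7.3.1 as the source of the deposited spot intensity. Background subtraction and detrending were done within each array and nothing was normalized across arrays, per the file headers, which also give mm9 as the build of the probe annotation. The deposited value table holds signal equal to that intensity divided by 1 number per array (468.9, 479.2, 434.1 and 494.2 for vitamin E, lutein, 4-OHT and vehicle), with column medians of 0.0736, 0.0847, 0.0949 and 0.0794. Scale and centring were read from this match. That table is linear, without centring by gene, and was tried as an alternative.

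Each array held 59305 gene spots, of which 51.3% to 54.5% were well above background. Outlier spots (137 to 164 per array) were left out and 0 spots were saturated. The arrays shared 1 slide, where each group had a position of its own, so group and position cannot be told apart. Log2 intensity minus the array's 75th percentile was averaged over spots of a probe, and the brightest probe stood for a gene. A gene was measured if well above background on at least 1 array, and in a comparison if so on at least 1 of its arrays. Of the 46 measured members 34 had 1 probe; 35 probes were annotated to the gene's chromosome, 2 to another and 9 to none.

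Members and lists were chosen with earlier results of these data known, so their counts are descriptions. Limits of 1.5-fold and, as an alternative, 2-fold are sizes, not tests. With 1 array per group, the number of arrays limits the precision. Values on all arrays were named for the immunoproteasome and catalytic subunits, the extremes of each role and members past 1.5-fold. Some genes of the lists are not reported here by name. Other values were named as examples, the partners Pomp and Sem1 and the genes Tapbp, Ifngr1, Csf1r and C1qb after their values were seen. Steps were tested on simulated data. Python 3.11.15 with pandas 2.3.3 and NumPy 2.4.6 was used, and normexp (offset 50) came from limma 3.58.1 under R 4.3.3. The level bands and the other complexes were added after seeing the data. Alternatives covered scaling, background correction, probe choice, filters, outlier spots and fold size.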

Additional observations from a re-analysis of the deposited data

How the results depend on the processing

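The members' median difference kept its direction under every alternative run: from -0.74 to -0.33 for 4-OHT minus vehicle, 0.14 to 0.65 for vitamin E minus 4-OHT, and 0.08 to 0.38 for lutein minus 4-OHT. The count at least 1.5-fold lower on 4-OHT did not hold, because many members lie near that size. It was 11 as reported, 36 with spike-in scaling, 2 with quantile normalization, 0 with the median of protein-coding genes set to 0 and 0 at 2-fold. The share of all genes past 1.5-fold is not given for each alternative, so these counts and those below describe the members only. No paired analysis was possible because there was 1 array in each group.

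Spike-in scaling, over the 8 of 10 probes well above background in over 50% of spots, gave medians for 4-OHT minus vehicle of -0.74 for all members, -0.77 for the core, -0.76 for the immunoproteasome, -0.66 for the cap, -0.38 for activators and the inhibitor and -0.65 for assembly. For vitamin E minus 4-OHT it gave 0.65 for all members with 32 members at least 1.5-fold higher, 0.66 for the core, 0.51 for the immunoproteasome, 0.62 for the cap, 0.55 for activators and 0.62 for assembly. For lutein minus 4-OHT it gave 0.38 for all members, 0.41 for the core, 0.37 for the immunoproteasome, 0.38 for the cap, 0.34 for activators and 0.38 for assembly, and 0.26 for vitamin E minus lutein. Of all genes past 1.5-fold on 4-OHT against vehicle 26.8% were then higher, against 52.9% as reported. For vitamin E minus 4-OHT 78.7% were higher, against 35.4% as reported, and the median of all genes moved by 0.35. The 32 members are to be read beside that array-wide shift.

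Of those 8 probes, 1 differed by 0.79 between 4-OHT and vehicle while the other 7 lay between -0.12 and -0.02. Scaling on these 7, those with every spot well above background, was added after seeing this. It gave 25 members at least 1.5-fold lower on 4-OHT, 36.2% of calls over all genes higher, and for vitamin E minus 4-OHT 0.52 for all members with 15 members at least 1.5-fold higher, 0.53 for the core, 0.38 for the immunoproteasome, 0.48 for the cap, 0.42 for activators and 0.49 for assembly. The members' median for 4-OHT minus vehicle was -0.63. The median of all genes moved by -0.14 there, and by 0.21 for vitamin E minus 4-OHT, where 66.2% of calls over all genes were higher.

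Vitamin E minus 4-OHT had 2 members at least 1.5-fold higher with normexp and 1 with the mean of a gene's probes. With no filter, Psmb8 entered and was the 1 member at least 1.5-fold higher for 4-OHT minus vehicle and for lutein minus vehicle, and the 1 at least 1.5-fold lower for vitamin E minus 4-OHT and for vitamin E minus lutein. The immunoproteasome median was -0.28 with normexp for 4-OHT minus vehicle. For vitamin E minus 4-OHT it was -0.0003 with the median of protein-coding genes set to 0, a setting added after seeing the data, against 0.17 as reported. The interferon core was found in 3 promoters (7.32%) in the 250 bases before the start alone, against 3.46% of all promoters. The matches in Psme1 and Psmg4 lie after the start and dropped out. The cause of these changes was not tested.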
